A study of Homo sapiens with 6 samples.

Results

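The integrins, cadherins and protocadherins of a human cardiomyocyte line were compared between cells given a negative control siRNA and cells in which the RNA-binding protein CIRBP was knocked down. Members were taken by name and by count: genes whose symbol begins with ITGA, ITGB or PCDH, or is CDH followed by a number, leaving out symbols with a hyphen and the integrin-binding proteins ITGB1BP and ITGB3BP, and reaching at least 10 estimated counts in at least 3 of the 6 libraries. Of 58884 genes in the table, 123 carried such a name, and 48 of these reached the count minimum: 20 of 27 integrins, 7 of 23 cadherins and 21 of 72 protocadherins, with the pseudogene PCDH8P1 outside these groups and below the minimum. Pseudogenes of the beta and gamma clusters are counted among the 72, and none of them reached the minimum. All 13 integrin alpha chains that bind laminin, collagen, RGD proteins or, as alpha 4 and alpha 9 do, VCAM1 were members, whereas of the 5 leukocyte alpha chains ITGAE alone was. Of the clustered protocadherins, 0 of 16 alpha genes, 1 of 19 beta genes and 16 of 24 gamma genes were members, and of the non-clustered ones 4 of 13. Just inside the minimum, CDH4 reached 10 counts and PCDHGC5 10.8 counts in 3 libraries, and just outside it PCDHA4 reached 9.91 and PCDHAC2 8.82.

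Integrins are receptors made of an alpha and a beta chain, which join the matrix outside the cell to the actin cytoskeleton inside it. The alpha chain largely sets the ligand: laminins, collagens, or proteins with the short RGD motif such as fibronectin and vitronectin. Classical cadherins bind the same cadherin on a neighbouring cell and hold the actin cytoskeleton through catenins, and N-cadherin (CDH2) does this at the intercalated disc of the heart. Clustered protocadherins come from arrays of variable exons, each with its own promoter, spliced to constant exons that all genes of a cluster share, and are best known for self-recognition between neurons.

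RNA-seq was carried out on 6 libraries of this line. In 3 of them the cells had received a negative control siRNA (NC), in the other 3 an siRNA that targets CIRBP (SiCIRBP), and the labels name no other treatment. The labels give the line as T0519, which the study describes as immortalized human ventricular cardiomyocytes, whereas its text names AC16 for this experiment. Nothing says that the 3 libraries of a group came from separate cultures, so p-values measure the spread between these libraries, which may be technical. The study set aside NC_1 and SiCIRBP_2 for their discrepancy from the others and tested NC_2 and NC_3 against SiCIRBP_1 and SiCIRBP_3. The same 4 libraries gave the fold changes and adjusted p-values reported first here (edgeR's quasi-likelihood test, Benjamini-Hochberg adjustment over all genes), and a gene is said to have risen, fallen or changed at an adjusted p under 0.05 in them. Normalized counts scaled to library size (CPM) are given for all 6 libraries, always in the order of replicates 1, 2 and 3.

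Totals ran from 25726259 to 29919566 estimated counts per library. CIRBP itself was at 86.4, 85.8 and 91.0 CPM in NC and at 54.8, 24.3 and 46.3 CPM in SiCIRBP, with no overlap between the groups (log2 fold change -0.81, SE 0.11, adjusted p = 0.00828). SiCIRBP_2 stood apart: the members took 0.185% of its counts against 0.275% to 0.292% in the other 5 libraries, and 21 interferon-stimulated genes summed to 6421 CPM in it, against 626 to 654 CPM in NC, 345 CPM in SiCIRBP_1 and 1202 CPM in SiCIRBP_3. Of 12 cardiomyocyte markers, 9 stayed under 1 CPM in all 6 libraries, among them MYH6, TNNT2, MYL2 and RYR2, while ACTN2 was at 13.96 to 22.2 CPM and NKX2-5 at 3.03 to 9.49 CPM. Of 8 fibroblast markers, 1 stayed under 1 CPM in all libraries, and their sum was 2901 to 3629 CPM in NC and 2221 to 6117 CPM in SiCIRBP, mostly COL1A1. The defining markers of endothelium (PECAM1, CDH5), leukocytes (PTPRC) and epithelium (EPCAM, CDH1) were at 0.25 CPM or less in all 6 libraries, although of the other endothelial genes TEK was at 17.1 to 34.3 CPM and KDR at 10.7 to 22.4 CPM. Their lists of 8 genes each summed to 45.7 to 53.9 CPM in NC and 36.3 to 57.4 CPM in SiCIRBP for endothelium, to 9.41 to 10.6 CPM and 12.2 to 15.2 CPM for leukocytes (mostly CD68), and to 1138 to 1448 CPM and 1013 to 1319 CPM for epithelium (mostly KRT18). In RNA from a whole culture, fewer cells of a type and less RNA per cell cannot be told apart.

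Of the 47 members that could be tested over the 4 libraries, 10 changed, 6 of them higher and 4 lower in SiCIRBP (PCDHGC5 was too low to be tested). Across all 15421 genes tested, 19.4% changed, 9.62% higher and 9.76% lower, so the members' count lay close to the background. ITGA3, ITGB3, ITGA11 and CDH13 fell, and ITGB8, ITGAE, CDH11, PCDH9, PCDHB13 and PCDHGA2 rose. A change of at least 2-fold was found for 5 of them (ITGA3 and ITGB3 lower, ITGB8, PCDHB13 and PCDHGA2 higher), against a background of 3.62%. By family, 5 of 20 integrins changed (2 rose, 3 fell), 2 of 7 cadherins (1 rose, 1 fell) and 3 of 20 protocadherins (3 rose). Of the 3 protocadherins, PCDHB13 and PCDHGA2 passed the low-count filter of this test only through SiCIRBP_1 and SiCIRBP_3, where they were high. Their rises are therefore not evidence that protocadherins rose. The median log2 fold change was 0.20 over the members, with 28 higher and 19 lower, and -0.0020 over all genes. By family it was 0.05 for integrins, -0.10 for cadherins and 0.41 for protocadherins. It was 0.11 for members at 1 CPM or more in the NC mean and 0.58 for those under 1 CPM. Over 6 libraries the member median was -0.035. Of the protocadherins tested, 15 were gamma genes, which share reads. Summed over all 24 gamma genes, the log2 difference was 0.14 over 4 libraries and -0.18 over 6. The medians are therefore not evidence of a rise of a whole family.

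**Figure D1:**
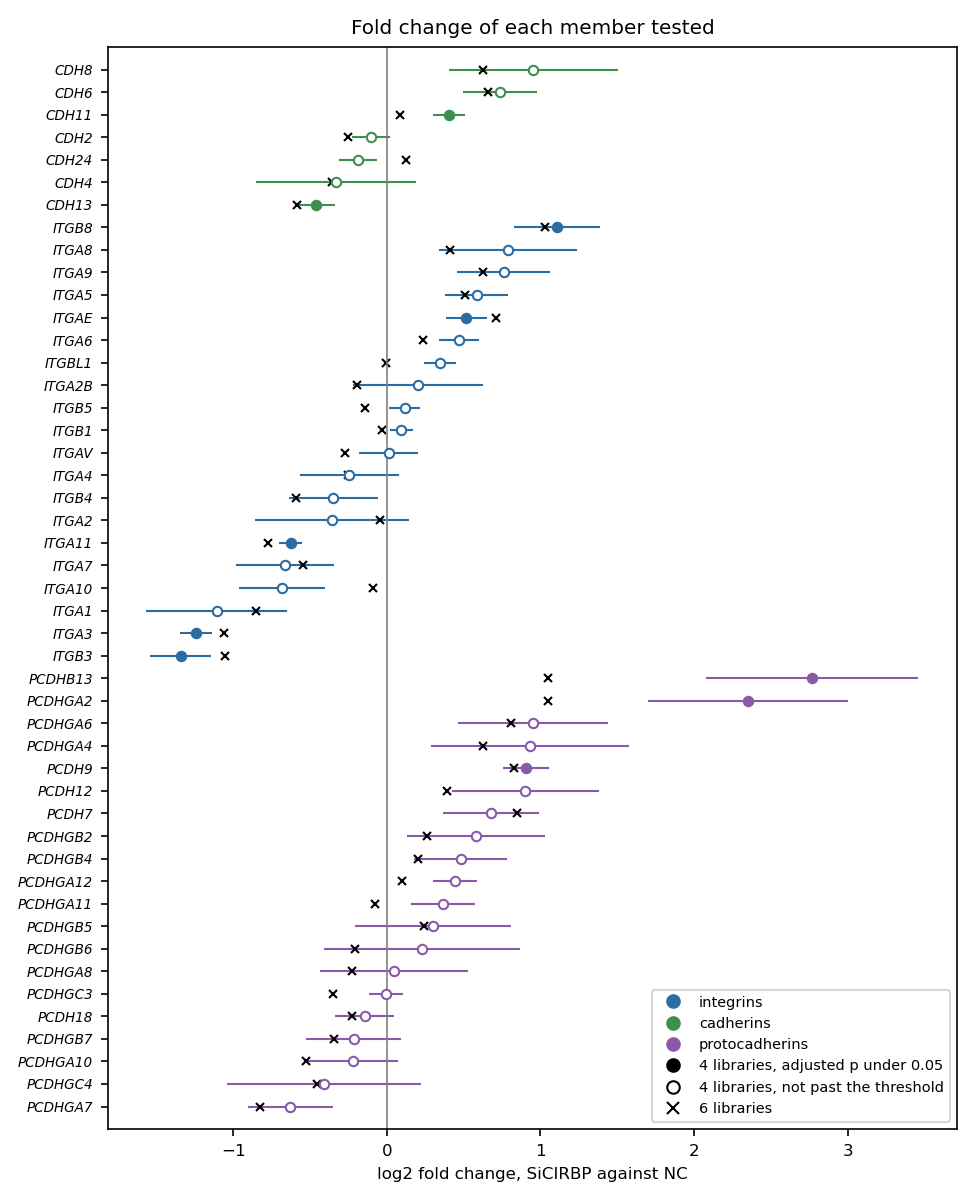
Log2 fold change, SiCIRBP against NC, of the 47 members tested over the study's 4 libraries, by family; circles give the value and bars the standard error, filled circles the 10 members with an adjusted p under 0.05, and crosses the value over all 6 libraries. The largest rises, of PCDHB13 and PCDHGA2, move from 2.77 and 2.35 to 1.05 when all 6 libraries are used, whereas ITGA3 stays below -1 in both.

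These calls depended on which libraries entered the test. When 1 of the 4 libraries is left out, a group holds a single library, which is assumed to vary like the other group. The number of members called was smaller without NC_2 or NC_3 and larger without SiCIRBP_1 or SiCIRBP_3. The share of all genes called in these fits was not computed, so this is not a result about the members. Over all 6 libraries edgeR called 0 members and 0 genes in all, with a smallest adjusted p among the members of 0.0853. At an unadjusted p under 0.05, 9 of 48 members passed, against 23.7% of all genes, and DESeq2 over the 6 libraries called 5 of 37 members with an adjusted p (ITGA3, ITGB3, ITGA11, PCDH9 and ITGB8), against 9.52% of all genes. The SiCIRBP and NC values did not overlap for 11 members, 6 higher (ITGA5, ITGAE, ITGB8, CDH6, PCDH7, PCDH9) and 5 lower (ITGA1, ITGA3, ITGA11, ITGB3, PCDHGB7). Of all genes, 32.8% had groups without overlap, 16.2% higher and 16.6% lower. For 1 gene, 3 against 3 libraries allow an exact permutation p no smaller than 0.1.

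**Figure D2:**
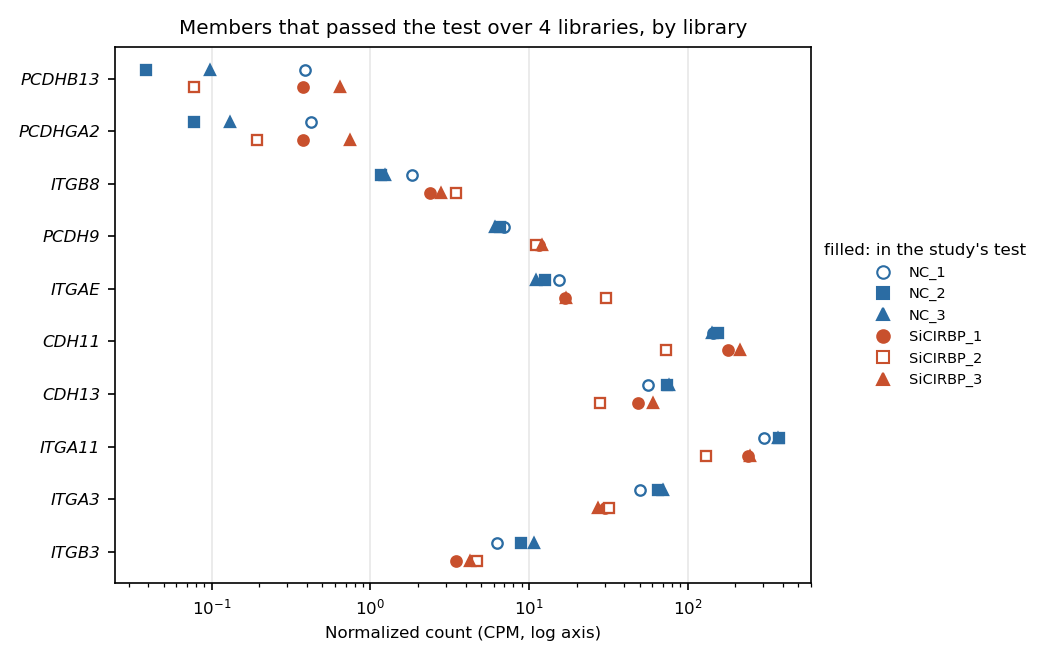
Normalized counts (CPM, log axis) of the 10 members that changed over 4 libraries, 1 point per library; blue points are NC and red points SiCIRBP, and open points are the libraries that the study set aside. For ITGA3, ITGB3, ITGA11, ITGAE, ITGB8 and PCDH9 all red points lie on 1 side of all blue points, whereas SiCIRBP_2 lies below the NC libraries for CDH11, and NC_1 lies among the SiCIRBP libraries for PCDHB13 and PCDHGA2.

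Levels between genes were compared in TPM, which divides each count by a transcript length and scales each library to the same total. ITGB1, the beta chain that pairs with the largest number of alpha chains, was far above all other members at 497 ± 17.4 TPM in NC (SD, n = 3). The next was ITGB5, which pairs with alpha V, at 117 ± 4.08 TPM. CDH2 (63.3 ± 3.30 TPM), ITGA5 (60.7 ± 3.43), CDH11 (60.4 ± 4.22) and ITGA11 (57.2 ± 9.13) followed, with NC ranges that overlapped between neighbours. ITGAE (42.5 ± 6.67 TPM), ITGBL1 (40.4 ± 1.80), ITGAV (33.8 ± 1.33), CDH13 (31.5 ± 5.12) and ITGA3 (24.5 ± 2.79) came next, and the highest protocadherin was PCDHGC3 at 13.7 ± 0.272 TPM. At the other end, PCDHB13 and PCDHGA2 were at 0.0467 ± 0.0473 and 0.0633 ± 0.0493 TPM, followed by ITGA2 and CDH4 at 0.070 ± 0.030 and 0.073 ± 0.012 TPM. ITGAE had its TPM from only 11.02 to 15.6 CPM, so that its place in the order rests on the transcript length that the deposited values assigned to it.

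**Figure D3:**
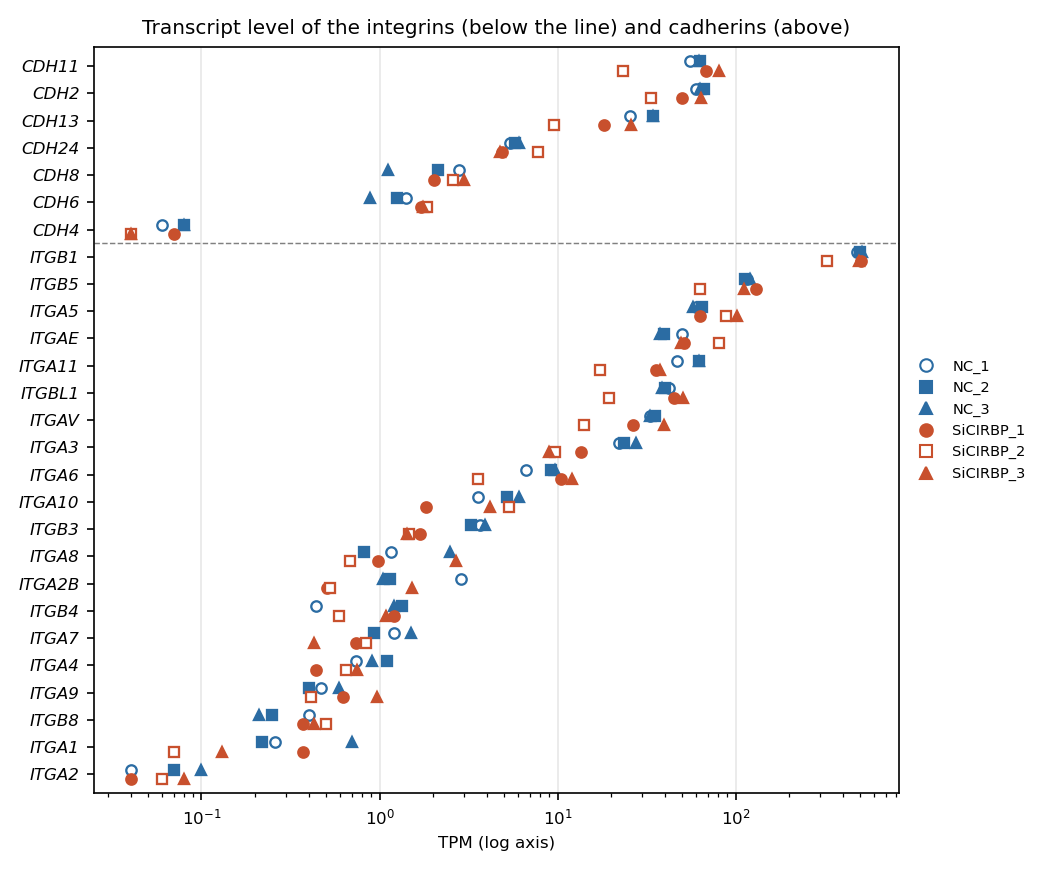
Transcript level (TPM, log axis) of the 20 integrins and 7 cadherins in each library, ordered by mean level within family; blue is NC, red is SiCIRBP and open points are the libraries that the study set aside. ITGB1 lies between 327 and 513 TPM in all 6 libraries, above every other member, and ITGA3 is lower in the 3 SiCIRBP libraries (8.96 to 13.5 TPM) than in the 3 NC libraries (22.2 to 27.6 TPM).

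Among the laminin-binding alpha chains ITGA3, ITGA6 and ITGA7, ITGA3 fell. ITGA3 encodes the alpha 3 chain, which with beta 1 binds laminins of the basement membrane, and lies at chr17:50055968-50090481 on the plus strand (GRCh38). It was at 50.1, 65.5 and 70.4 CPM in NC and at 30.3, 31.9 and 27.2 CPM in SiCIRBP. All 3 SiCIRBP libraries lay below all 3 NC libraries, and SiCIRBP_2 lay between the other SiCIRBP libraries and NC. The level was 2.36-fold lower over the 4 libraries (log2 fold change -1.24, SE 0.10, adjusted p = 0.00348) and -1.06 on the log2 scale over 6 (SE 0.16, adjusted p = 0.0853). ITGA6, the alpha chain of hemidesmosomes when joined to beta 4, was at 26.4, 30.2 and 34.1 CPM in NC and at 40.1, 17.5 and 49.0 CPM in SiCIRBP. SiCIRBP_1 and SiCIRBP_3 were above all NC libraries and SiCIRBP_2 below them, and the 4-library value of 0.47 (SE 0.13) did not pass the test (adjusted p = 0.0515). DESeq2 over the same 4 libraries called ITGA6 (adjusted p = 0.0236), as did edgeR with no filter on low counts (adjusted p = 0.00629), whereas over 6 libraries the adjusted p was 0.682. ITGA7, the main laminin-binding alpha chain of mature striated muscle, was low, at 1.63 to 2.17 CPM in NC and 0.890 to 1.67 CPM in SiCIRBP (log2 fold change -0.66, adjusted p = 0.184).

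All 4 collagen-binding alpha chains were lower in SiCIRBP over the 4 libraries, and of them ITGA11 passed the test. ITGA11 encodes the alpha 11 chain, a receptor for fibrillar collagen known from fibroblasts, and lies at chr15:68296533-68432162 on the minus strand. It was at 304, 380 and 373 CPM in NC and at 241, 130 and 246 CPM in SiCIRBP. The groups did not overlap, and SiCIRBP_2 was the lowest library by far. The 4-library log2 fold change was -0.63 (SE 0.07, adjusted p = 0.00627), and the 6-library value was -0.77 (SE 0.24, adjusted p = 0.127). ITGA10, the alpha 10 chain best known from cartilage, was at 9.57, 12.9 and 14.1 CPM in NC and at 5.82, 17.5 and 10.97 CPM in SiCIRBP. Its highest library, SiCIRBP_2, and its lowest, SiCIRBP_1, were both in the knockdown group, and the log2 fold change was -0.68 over 4 libraries (SE 0.28, adjusted p = 0.130) and -0.09 over 6. ITGA1 was at 0.558 to 0.701 CPM in NC and at 0.249 to 0.506 CPM in SiCIRBP (log2 fold change -1.11, SE 0.46, adjusted p = 0.132), and ITGA2 stayed under 0.6 CPM in every library.

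The 250 bases before the start of ITGA11 are shown because this gene is the most abundant of the members that fell and its sequence was among the promoters at hand (RefSeq, GRCh38.p14, minus strand, chr15:68432164-68432413). They are 71.2% G and C, and hold no GC box (GGGCGG), TEAD motif (GGAATG), AP-1 motif (TGANTCA) or E-box (CACGTG) on either strand, so no letters are in capitals.
ITGA11: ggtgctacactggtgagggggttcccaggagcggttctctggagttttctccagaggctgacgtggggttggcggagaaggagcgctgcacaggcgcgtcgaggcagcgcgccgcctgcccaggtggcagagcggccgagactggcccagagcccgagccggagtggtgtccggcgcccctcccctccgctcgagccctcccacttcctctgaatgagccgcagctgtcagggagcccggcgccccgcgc

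Of the RGD-binding alpha chains ITGA5, ITGA8, ITGAV and ITGA2B, 0 of 4 passed the edgeR test over the 4 libraries (1 at an unadjusted p under 0.05; DESeq2 called 1 over 4 libraries and 0 over 6), and their 4 log2 fold changes were all above 0. ITGA5, the alpha chain of the main fibronectin receptor, was at 98.2, 95.1 and 80.4 CPM in NC and at 102, 126 and 161 CPM in SiCIRBP. The 3 SiCIRBP libraries all lay above the 3 NC libraries, with SiCIRBP_1 just above NC_1. The log2 fold change was 0.59 over 4 libraries (SE 0.21, adjusted p = 0.0901) and 0.51 over 6 (SE 0.18, adjusted p = 0.154), and DESeq2 over the 4 libraries did call it (adjusted p = 0.00872; 0.0837 over 6). ITGAV, the alpha V chain of the vitronectin receptors, was at 168, 178 and 162 CPM in NC and at 134, 76.5 and 209 CPM in SiCIRBP. The SiCIRBP libraries lay on both sides of NC, and the log2 fold change was 0.01 (SE 0.19, adjusted p = 0.967). It became 0.29 without SiCIRBP_1, -0.34 without SiCIRBP_3 and -0.27 over 6 libraries, so these values give no direction. ITGA8 (3.15 to 10.9 CPM) and ITGA2B (0.895 to 2.21 CPM) were low in all libraries.

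Of the alpha 4 and alpha 9 chains, which bind VCAM1 among other ligands, neither passed the test. ITGA4 was at 2.59, 3.69 and 3.51 CPM in NC and at 2.12, 2.14 and 3.95 CPM in SiCIRBP (log2 fold change -0.24, SE 0.32, adjusted p = 0.622). ITGA9 was at 1.75, 2.37 and 3.38 CPM in NC and at 3.84, 1.79 and 5.95 CPM in SiCIRBP (log2 fold change 0.76, SE 0.30, adjusted p = 0.120). For both genes the groups overlapped.

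ITGAE, the alpha E chain that lymphocytes use to bind E-cadherin, rose. It lies at chr17:3714628-3801243 on the minus strand. Its level was 15.6, 12.6 and 11.02 CPM in NC and 16.8, 30.5 and 17.0 CPM in SiCIRBP, so that the groups did not overlap, with SiCIRBP_2 highest. The log2 fold change was 0.52 over 4 libraries (SE 0.13, adjusted p = 0.0392) and 0.71 over 6 (SE 0.26, adjusted p = 0.166). DESeq2 over the 4 libraries did not call it (adjusted p = 0.0566), nor did edgeR over the 5 libraries without SiCIRBP_2 (adjusted p = 0.163). ITGB7, the beta chain it pairs with, did not reach the count minimum. Of the leukocyte markers, PTPRC was at 0.18 CPM or less and CD14 at 0.817 to 1.93 CPM. CD68 was at 7.73 to 8.20 CPM in NC and 10.7 to 13.7 CPM in SiCIRBP. HASPIN lies within ITGAE on the opposite strand and covers 427 of its exon bases. HASPIN itself was at 41.0 to 46.0 CPM in NC and 36.1 to 40.9 CPM in SiCIRBP, and the part of it in the ITGAE values was not tested.

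Of the 6 beta-chain genes, ITGB3 fell and ITGB8 rose. ITGB3, the beta 3 chain of platelets and of the alpha V beta 3 vitronectin receptor, lies at chr17:47253846-47311816 on the plus strand. It was at 6.27, 8.93 and 10.8 CPM in NC and at 3.49, 4.75 and 4.27 CPM in SiCIRBP. No SiCIRBP library reached the lowest NC library, NC_1, and the 4-library level was 2.54-fold lower (log2 fold change -1.34, SE 0.20, adjusted p = 0.0102; -1.05 and adjusted p = 0.1002 over 6). By shared 31-base words, 51.0% of the ITGB3 transcript sequence also occurs in the overlapping gene AC068234.1 on the same strand, so reads could be divided between them. AC068234.1 held 0 counts in the 3 NC libraries and 2.78, 9.05 and 0 in the SiCIRBP libraries, which is at most 0.350 CPM, while the ITGB3 means over the 4 libraries were 9.84 CPM in NC and 3.88 CPM in SiCIRBP.

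ITGB8, the beta 8 chain, which with alpha V binds latent TGF-beta, lies at chr7:20330702-20415754 on the plus strand. It was at 1.82, 1.16 and 1.25 CPM in NC and at 2.40, 3.46 and 2.81 CPM in SiCIRBP. The groups did not overlap, with SiCIRBP_2 the highest and NC_1 the highest of the controls. The log2 fold change was 1.11 over 4 libraries (SE 0.28, adjusted p = 0.0385) and 1.03 over 6 (SE 0.29, adjusted p = 0.114), and DESeq2 over the 4 libraries did not call it (adjusted p = 0.102).

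ITGB1 and ITGB5, the most abundant beta chains, did not pass the test. ITGB1 was at 1245, 1292 and 1282 CPM in NC and at 1397, 998 and 1351 CPM in SiCIRBP (log2 fold change 0.09, SE 0.07, adjusted p = 0.392). ITGB5 was at 202, 190 and 178 CPM in NC and at 216, 117 and 183 CPM in SiCIRBP (log2 fold change 0.12, SE 0.10, adjusted p = 0.440). For both, SiCIRBP_2 was the lowest of the 6 libraries, and over 6 libraries the values were -0.03 and -0.14. ITGBL1, which encodes a secreted protein related to beta chains, was at 61.4 to 71.5 CPM in NC and at 76.5, 36.1 and 87.6 CPM in SiCIRBP (log2 fold change 0.35, adjusted p = 0.0615, and 0.0492 by DESeq2 over the same 4 libraries). FGF14 overlaps 68.4% of its sequence on the opposite strand. FGF14 was at 2.39 to 4.07 CPM in NC and 2.96 to 5.66 CPM in SiCIRBP, and rose over the 4 libraries (log2 fold change 1.04, adjusted p = 0.0276). The part of FGF14 in the ITGBL1 values was not tested. ITGB4 was at 1.37 to 1.84 CPM in NC and at 0.467 to 1.47 CPM in SiCIRBP (log2 fold change -0.35, adjusted p = 0.428).

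The make-up of the alpha chains was described from TPM, with ITGAE left out because of its length-dependent level. RGD-binding chains made up 54.2%, 49.6% and 46.3% of alpha TPM in NC and 58.9%, 73.3% and 69.2% in SiCIRBP. Collagen-binding chains made up 28.3%, 33.2% and 34.0% in NC and 24.5%, 16.0% and 19.8% in SiCIRBP, and laminin-binding chains 16.8%, 16.5% and 19.0% in NC and 15.9%, 9.92% and 10.1% in SiCIRBP. In none of these 3 groups did SiCIRBP overlap NC, and each difference had the smallest p that 3 against 3 libraries allow (exact permutation test, two-sided, p = 0.1). The shares sum to a whole and are not independent of each other, and SiCIRBP_1 lay nearest to NC in all 3. They largely restate the values of ITGA5, ITGA11 and ITGA3 given above and are not separate support. ITGA5 was the main part of the RGD-binding share. Summed over the same 13 chains, alpha TPM was 179 to 205 in NC and 142 to 211 in SiCIRBP (p = 0.4), and the 5 beta chains other than ITGBL1 summed to 599 to 639 TPM in NC and 393 to 642 TPM in SiCIRBP (p = 0.7, both exact permutation tests).

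**Figure D4:**
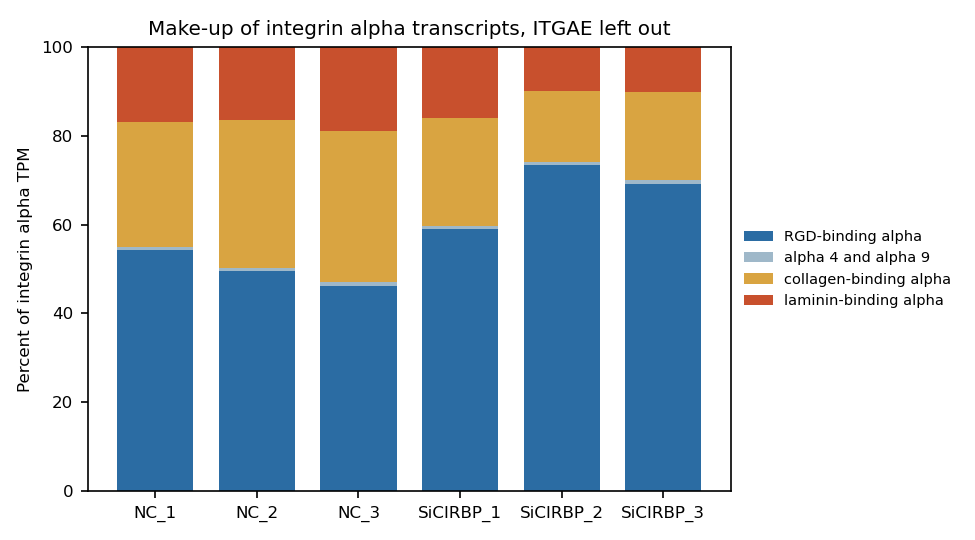
Share of each ligand group in the summed TPM of 13 integrin alpha chains (ITGAE left out), as stacked bars in percent, 1 bar per library. RGD-binding chains take 46.3% to 54.2% in the NC libraries and 58.9% to 73.3% in the SiCIRBP libraries, and the collagen- and laminin-binding shares are smaller in each SiCIRBP bar than in any NC bar.

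Among the 7 cadherins, CDH13 fell and CDH11 rose. CDH13, or T-cadherin, which is held to the membrane by a lipid anchor and binds adiponectin, lies at chr16:82626803-83800640 on the plus strand. It was at 56.4, 74.1 and 76.5 CPM in NC and at 48.8, 28.3 and 60.7 CPM in SiCIRBP. SiCIRBP_3 lay above NC_1, so the groups overlapped, and SiCIRBP_2 was the lowest. The log2 fold change was -0.46 over 4 libraries (SE 0.12, adjusted p = 0.0414), -0.59 over 6 (adjusted p = 0.224) and -0.33 with 5 libraries, leaving out SiCIRBP_2 (adjusted p = 0.192).

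CDH11, the type II cadherin of mesenchymal cells, lies at chr16:64943753-65126112 on the minus strand. It was at 144, 155 and 142 CPM in NC and at 181, 73.4 and 213 CPM in SiCIRBP. SiCIRBP_1 and SiCIRBP_3 were above all NC libraries, whereas SiCIRBP_2 was far below them. The log2 fold change was 0.41 over 4 libraries (SE 0.10, adjusted p = 0.0395) but 0.08 over 6 (SE 0.33, adjusted p = 0.892), so the call rested on leaving out SiCIRBP_2.

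CDH2, the N-cadherin of cardiac cell junctions, was at 174, 192 and 176 CPM in NC and at 151, 112 and 191 CPM in SiCIRBP. The groups overlapped, and the log2 fold change was -0.10 (SE 0.12, adjusted p = 0.582). CDH24 was at 14.6, 15.2 and 14.7 CPM in NC and at 13.3, 22.4 and 13.0 CPM in SiCIRBP (log2 fold change -0.19 over 4 libraries, adjusted p = 0.312, and 0.13 over 6), with SiCIRBP_2 the highest library. CDH6 was higher in every SiCIRBP library (4.49 to 4.90 CPM) than in any NC library (2.36 to 3.399 CPM), with a log2 fold change of 0.74 (SE 0.24) that did not pass the test (adjusted p = 0.0740). CDH8 (0.230 to 0.855 CPM) and CDH4 (0.214 to 0.388 CPM) stayed under 1 CPM in all libraries. For CDH4 the NC values were 0.315, 0.388 and 0.361 CPM and the SiCIRBP values 0.377, 0.233 and 0.214 CPM (log2 fold change -0.33, SE 0.52, adjusted p = 0.684).

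Of the 4 non-clustered protocadherins, PCDH9 rose. PCDH9 encodes a delta-type protocadherin best known from the nervous system and lies at chr13:66302834-67230445 on the minus strand. Its level was 6.94, 6.56 and 6.13 CPM in NC and 11.6, 11.05 and 12.2 CPM in SiCIRBP. The groups did not overlap, and the 3 SiCIRBP libraries, SiCIRBP_2 included, lay close together. The log2 fold change was 0.90 over 4 libraries (SE 0.15, adjusted p = 0.0135) and 0.83 over 6 (SE 0.16, adjusted p = 0.0869; DESeq2 adjusted p = 0.00091). PCDH7, a relative of PCDH9, was at 3.399, 3.53 and 3.64 CPM in NC and at 4.01, 7.58 and 7.48 CPM in SiCIRBP, without overlap (log2 fold change 0.68, SE 0.31, adjusted p = 0.169). PCDH18 was at 5.47, 6.76 and 5.67 CPM in NC and at 5.24, 4.04 and 5.98 CPM in SiCIRBP (log2 fold change -0.15, SE 0.19, adjusted p = 0.622). PCDH12 was under 1 CPM in all libraries.

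The 16 protocadherin gamma members lie in 1 array on chromosome 5 and all end at the same base, 141512979, because their transcripts share the constant exons. By 31-base words, 38.0% to 73.4% of the transcript sequence of each gamma member also occurs in other genes, mostly its neighbours in the array, whereas 3 of the other 32 members share more than 10% (ITGB3, ITGBL1 and PCDHB13). Reads from a constant exon cannot be tied to 1 gene by sequence alone, and the deposited estimated counts divide them between the genes. The first 2 constant coding exons, each listed for 22 gamma genes and all 16 members, are shown for that reason (GENCODE 29, GRCh38, plus strand, chr5:141494807-141494865 and chr5:141505393-141505481).
constant exon 1: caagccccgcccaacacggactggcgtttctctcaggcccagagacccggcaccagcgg
constant exon 2: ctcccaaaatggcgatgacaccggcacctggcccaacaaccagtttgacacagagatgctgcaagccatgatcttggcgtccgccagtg

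Among the 15 gamma genes tested, 1 rose (PCDHGA2) and 0 fell over the 4 libraries in edgeR's test, 2 passed an unadjusted p under 0.05, and DESeq2 called 0 over 4 or 6 libraries. However, DESeq2 gave an adjusted p over 6 libraries to only 11 of the 16 gamma members. PCDHGA2 received none in either fit (DESeq2 unadjusted p = 0.0588 over 4 libraries). PCDHGC3, the most abundant, was at 35.6, 34.6 and 31.8 CPM in NC and at 31.3, 13.7 and 34.8 CPM in SiCIRBP (log2 fold change -0.0050, SE 0.11, adjusted p = 0.979). PCDHGA12 was at 8.90, 9.86 and 9.05 CPM in NC and at 12.2, 4.08 and 13.5 CPM in SiCIRBP (log2 fold change 0.44, SE 0.14, adjusted p = 0.0712). In both genes SiCIRBP_2 was the lowest library. Summed over all 24 gamma genes of the table, which does not depend on how shared reads were divided among them, the level was 69.4, 69.2 and 63.2 CPM in NC and 67.6, 32.4 and 78.1 CPM in SiCIRBP. The groups overlapped, and the log2 difference was 0.14 over 4 libraries and -0.18 over 6 (exact permutation test over 6 libraries, p = 0.8).

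PCDHGA2 and PCDHB13, the 2 members with the largest log2 fold changes, were both very low. Both passed the low-count filter of the 4-library test only through SiCIRBP_1 and SiCIRBP_3, the group where they were high. Large fold changes were thus partly selected by the filter. DESeq2 gave neither gene an adjusted p over 4 or 6 libraries. PCDHGA2 (chr5:141338760-141512979, plus strand) was at 0.421, 0.0777 and 0.131 CPM in NC and at 0.377, 0.194 and 0.748 CPM in SiCIRBP. Over the 4 libraries this was 7 counts against 33, a ratio of 4.63 (95% counting interval 2.01 to 12.4, which covers counting error only), with a log2 fold change of 2.35 (SE 0.65, adjusted p = 0.0489). PCDHB13 (chr5:141213919-141218979, plus strand), the only beta-cluster member, was at 0.386, 0.0388 and 0.0984 CPM in NC and at 0.377, 0.0778 and 0.641 CPM in SiCIRBP. This was 5 counts against 29 over the 4 libraries, a ratio of 5.69 (2.18 to 18.8; log2 fold change 2.77, SE 0.69, adjusted p = 0.0374). For both genes NC_1 lay above SiCIRBP_1 and SiCIRBP_2, and over 6 libraries the log2 fold change was 1.05 with adjusted p = 0.388 for PCDHGA2 and 0.476 for PCDHB13. Both calls were also lost without SiCIRBP_3, in a fit with a single SiCIRBP library. PCDHB13 shares 32.7% of its words with other genes, and 23.3% with PCDHB8, so reads could be divided between them. PCDHB8 held 10.0, 7.92 and 7.55 counts in NC and 9.0, 5.49 and 4.27 in SiCIRBP. The part of shared reads in the PCDHB13 values was not tested. The whole beta cluster summed to 0.854 to 1.25 CPM in NC and 0.933 to 2.64 CPM in SiCIRBP, and the alpha cluster to 0.596 to 0.854 CPM and 0.548 to 0.997 CPM.

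SiCIRBP_2 was the lowest of the 6 libraries for 22 of 48 members (45.8%), whereas 32.2% of all genes had their lowest value there. Of the 34 members at 1 CPM or more in NC this held for 20 (58.8%), but the share of all genes at that level was not computed. Among the 22 were 9 of the 16 gamma genes, which share exons and are not independent of each other. The median over members of the log2 difference from the NC mean was 0.05 in SiCIRBP_1, -0.42 in SiCIRBP_2 and 0.29 in SiCIRBP_3. The median over all genes in SiCIRBP_2 was -0.01, so the lower level of the members in this library was relative to its other genes. By family, SiCIRBP_2 was at -0.53 for integrins, -0.45 for cadherins and -0.42 for protocadherins, and SiCIRBP_3 at 0.28, 0.08 and 0.49. SiCIRBP_2 was the highest library for ITGAE, ITGB8, ITGA10, CDH24, CDH6 and PCDH7, and PCDH9 (0.75), CDH8 (0.59), ITGA5 (0.47) and PCDH12 (0.37) were also above the NC mean there on the log2 scale. The part of the high interferon-stimulated genes of this library in its lower member levels was not tested.

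**Figure D5:**
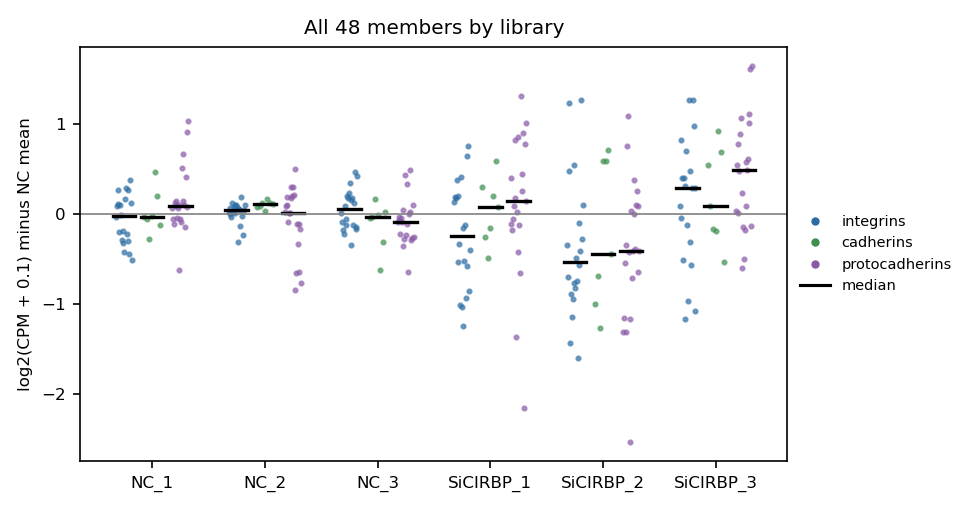
Log2(CPM + 0.1) of each of the 48 members minus its mean over the NC libraries, 1 point per member and library, coloured by family, with the family median as a bar. The medians of all 3 families lie below 0 in SiCIRBP_2 (-0.53, -0.45 and -0.42) and above 0 in SiCIRBP_3.

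Genes that work with these receptors were taken from lists of partners that were chosen with earlier results of these data known. Their share of changed genes is therefore a description and not independent support. Of 94 partner genes tested over the 4 libraries, 34 changed (36.2%; 8 rose, 26 fell), against 19.4% of all genes, with a median log2 fold change of -0.09, and 3 of them by 2-fold or more. Of the adaptors that join integrins to actin, 13 of 32 changed (2 rose, 11 fell). TGFB1I1, or Hic-5, a focal adhesion protein related to paxillin, was at 105, 161 and 189 CPM in NC and at 52.2, 84.6 and 64.1 CPM in SiCIRBP, without overlap (log2 fold change -1.59, SE 0.13, adjusted p = 0.00331). FERMT2, or kindlin-2, which binds the tails of beta chains and activates integrins, fell by 0.77 on the log2 scale (adjusted p = 0.00476), while its level in SiCIRBP_2 (219.8 CPM) lay within the NC range of 185 to 255 CPM.

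Of the catenins, 4 of 8 changed (1 rose, 3 fell). CTNND1, the p120 catenin that keeps cadherins at the cell surface, was at 282, 305 and 294 CPM in NC and at 190.0, 216 and 210.3 CPM in SiCIRBP, without overlap (log2 fold change -0.58, SE 0.08, adjusted p = 0.00985). JUP, or plakoglobin, fell by 0.79 (adjusted p = 0.0150), with SiCIRBP_2 at 15.3 CPM within the NC range of 9.88 to 16.2 CPM. Of the integrin ligands, 8 of 18 changed (1 rose, 7 fell). CCN2, a matrix protein that binds integrins, was at 530, 1026 and 879 CPM in NC and at 357, 282 and 237 CPM in SiCIRBP, without overlap (log2 fold change -1.68, SE 0.19, adjusted p = 0.00605). THBS2, or thrombospondin 2, fell by 0.50 (adjusted p = 0.0106).

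Tetraspanins and other lateral partners were the only partner list with more rises than falls, 5 of 13 having changed (4 rose, 1 fell). CAV1, or caveolin 1, rose by 0.67 (adjusted p = 0.0102), with SiCIRBP_2 (412 CPM) within the NC range of 361 to 433 CPM. CD63, a tetraspanin of endosomes and exosomes, was at 337, 291 and 271 CPM in NC and at 380, 539 and 393 CPM in SiCIRBP, without overlap (log2 fold change 0.46, SE 0.08, adjusted p = 0.0146). Of 7 sheddases and endocytic regulators of cadherins, ADAM17 fell (by 0.50, adjusted p = 0.0188), and 0 of 4 desmosomal genes passed edgeR's test (2 at an unadjusted p under 0.05, 0 with DESeq2). Of 12 genes known from promoter choice in the clustered protocadherins, 3 fell, among them STAG2 (by 0.56, adjusted p = 0.0113) and NIPBL (by 0.43, adjusted p = 0.0302), which load or form cohesin. The partner counts depended on the libraries as the members' did: edgeR over 6 libraries called 0 of them, and DESeq2 16.

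Promoter sequence of 250 bases before the start was at hand for 37 of the 48 members (RefSeq, GRCh38.p14). On either strand, GC boxes (GGGCGG) occurred in 10 of the 37 members and in 42.6% of 35116 promoters. The TEAD motif GGAATG occurred in 6 of 37 and in 11.9% of promoters, the AP-1 motif TGANTCA in 1 and in 6.57%, and the E-box CACGTG in 1 and in 6.34%. The median share of G and C was 56.4% in the members and 58.0% in all promoters. The windows of ITGB8 (plus strand, chr7:20330650-20330899) and PCDH9 (minus strand, chr13:67230337-67230586) are shown as examples. These genes are among the members that were higher in each SiCIRBP library than in any NC library. The windows end at the RefSeq start, which differs from the GENCODE 29 gene bound, so that the ITGB8 window lies mostly inside and the PCDH9 window partly inside the gene span given for it here. Each holds 2 GC boxes, given in capitals, and neither holds another of the motifs. Other members without overlap and higher in SiCIRBP differed. The windows of ITGAE and PCDH7 hold 0 of the motifs, and that of ITGA5 holds 1 GC box and 1 TEAD motif.
ITGB8: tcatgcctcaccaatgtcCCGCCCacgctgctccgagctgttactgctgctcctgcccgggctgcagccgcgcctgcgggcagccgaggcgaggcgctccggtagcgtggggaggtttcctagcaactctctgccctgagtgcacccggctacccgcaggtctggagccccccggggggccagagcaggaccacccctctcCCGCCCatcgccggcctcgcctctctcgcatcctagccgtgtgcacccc
PCDH9: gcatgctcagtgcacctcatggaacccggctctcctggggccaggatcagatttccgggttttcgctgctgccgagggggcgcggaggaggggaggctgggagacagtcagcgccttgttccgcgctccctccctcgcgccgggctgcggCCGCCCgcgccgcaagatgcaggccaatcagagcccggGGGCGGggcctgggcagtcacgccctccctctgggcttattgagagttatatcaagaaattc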

How the data were processed

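RNA-seq of 3 NC and 3 SiCIRBP libraries was analysed from the authors' gene table. For 58884 genes, the authors deposited 1 estimated count per library, that is, reads assigned to the gene without normalization. Some estimated counts are fractions. The deposited TPM values divide these by a transcript length assigned by the authors. The submitters' processing notes name fastp, HISAT and RSEM. Versions and the strand setting are not given in the sources used here. Columns of the authors' own fold changes and p-values, and a second table of the same kind, were not used.

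After rounding, edgeR 4.0.16 (TMM, filterByExpr, glmQLFit, glmQLFTest, in R 4.3.3) was applied to the 4 libraries that the study kept, and to all 6. Depth was 25726259 to 29919566 estimated counts per library. Each standard error is the size of the log2 fold change over the root of F. CPM used TMM factors over 6 libraries. DESeq2 1.42.0, size factors by RLE, other count filters, a replicate block and leaving out libraries were alternatives. Sums were compared with scipy 1.17.1 (exact permutation). The edgeR steps were tested on simulated data. Gene locations and 31-base words shared between genes came from GENCODE 29, which held 58611 of the identifiers.

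Members, partner lists and marker lists were chosen with earlier results of these data known. Values per library are given for members that changed by 2-fold, up to 20 further members that changed, the 2 members of highest TPM in each role group, and members without overlap and with a mean log2 difference of at least 1. The other members named were chosen after their values were seen. Of each partner list the 2 changed genes of smallest p are named. Summing the gamma cluster and leaving ITGAE out of the alpha make-up were chosen after seeing the data.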

Additional observations from a re-analysis of the deposited data

How the results depend on the processing

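Over all 6 libraries, edgeR called 0 members, 0 integrins, 0 cadherins, 0 protocadherins and 0 partner genes, with a CIRBP log2 fold change of -1.07 and a member median of -0.035. DESeq2 over the 4 libraries called 1 protocadherin, and over 6 libraries 5 members, 0 cadherins, 1 protocadherin and 16 partner genes, with a median of -0.032. Without a filter on low counts 18 members and 11 integrins were called, the main 10 members among them, and with at least 10 counts in every library 1 protocadherin. With 5 libraries, leaving out SiCIRBP_2, 5 members, 3 integrins, 1 cadherin, 1 protocadherin and 13 partner genes were called, and leaving out NC_1, 0 of each, with CIRBP at -1.08 and a median of 0.021. Leaving out each of the 4 libraries in turn, the count ran from 1 to 21 for members, 1 to 12 for integrins, 0 to 4 for cadherins, 0 to 7 for protocadherins and 2 to 56 for partner genes. CIRBP ran from -0.94 to -0.70, ITGB5 from -0.013 to 0.23, CDH2 from -0.29 to 0.050, ITGAV from -0.34 to 0.29, PCDHGC3 from -0.088 to 0.064, ITGA4 from -0.76 to 0.13 and CDH4 from -0.80 to 0.0062. In these fits the lone library of a group is assumed to vary like the other group. The cause was not tested. RLE size factors called the same 10 members. Of the 24 members with values per library, 10 turned direction under some alternative, and of these CDH11 alone had been called. Members outside these 24 also turned, such as ITGA2B (0.20 over 4 libraries, -0.19 over 6) and PCDHGA11 (0.37 and -0.077). Over 6 libraries with edgeR, with DESeq2, and with edgeR without NC_1, ITGB1 was at -0.028, -0.027 and -0.045, ITGB5 at -0.14, -0.14 and -0.099, ITGAV at -0.27, -0.27 and -0.28, and CDH24 at 0.13, 0.13 and 0.12. PCDHGC3 was at 0.052 without NC_2, and ITGAV at -0.057 without NC_3 and at -0.0040 with no filter. Over the 24 members with values per library, 198 of the alternatives kept direction and side of the threshold, 59 lost a call, 19 gained one and 27 turned direction.

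With replicate number as a block over 6 libraries, 0 members, 0 integrins, 0 cadherins, 0 protocadherins and 0 partner genes were called, CIRBP was at -1.14 and the member median at -0.073. ITGB1 was at -0.044, ITGB5 at -0.19, CDH11 at -0.043, ITGAV at -0.39, CDH24 at 0.079 and PCDHGA12 at -0.045. Across genes, the deviations of same-numbered libraries from their group means had correlations of -0.118, 0.006 and -0.026. With SiCIRBP_2 far from its group, these values cannot show whether such libraries shared a culture or batch.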
